A study of Homo sapiens with 4 samples.

Results

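FGF11, FGF12, FGF13 and FGF14 encode the intracellular fibroblast growth factor homologous factors (FHFs), and the 4 genes were examined among the 57820 gene rows of each count file. They were chosen by name, with the comparison of SGSS05-NS against DMSO already known and because the paralogs differ widely in the length of genome they span, so their own values are given as a description with no p-value. The RNA came from SY5Y, a human neuroblastoma line labelled MYCN wild type, harvested 12 h after treatment. The DMSO group had 2 libraries of cells given the solvent alone, and the SGSS05-NS group had 2 libraries of cells given the compound, at 3 μM according to the labels. SGSS05-NS is presented as an inhibitor of the histone methyltransferase SETD8. The methods of the study name the compound SGSS05-NS3 and give a lower dose for these cells, while other passages of it name the labelled dose, and the dose of these libraries is not settled here. Both groups were the same line, so every value below describes 1 line at 1 time.

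FHFs share the fold of the secreted fibroblast growth factors but lack a signal peptide and stay inside the cell. They bind the cytoplasmic tail of voltage-gated sodium channel alpha subunits, tune the inactivation of the channel and help to place it at the axon initial segment. They do not act as ordinary ligands of the FGF receptors. FGF14 is known for its role in neuronal excitability and in spinocerebellar ataxia, FGF12 for epilepsy, and FGF13 for binding microtubules in growing axons. The family is largely neuronal, and neuroblastoma arises from precursors of the sympathetic nervous system.

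The libraries held between 21463105 and 25350204 fragments on genes in the strand-specific count that was used. Adrenergic neuroblastoma markers were abundant, with 13 genes summing to 5420 and 5780 CPM (counts per 10 to the power 6, scaled by TMM) in the DMSO libraries and to 3340 and 3250 CPM in the SGSS05-NS libraries, and 8 of them were called lower. A gene is called at an adjusted p-value under 0.001 in edgeR's quasi-likelihood test over all genes, and 8.14% of the genes tested were called lower. TH, a defining marker of catecholamine synthesis, had at most 2 fragments in any library. Markers of other cell types were low: 5 Schwann cell genes summed to between 1.57 and 2.57 CPM, with SOX10 at 0 throughout, the 4 immune genes to at most 0.18 CPM and 2 endothelial genes to at most 0.0900 CPM. The mesenchymal or fibroblast list summed to between 96.4 and 174 CPM, nearly all of it TWIST1, with PRRX1 and DCN at 0 throughout. TWIST1 was called lower and FOSL1 of the same list higher, from 1 and 0 fragments to 152 and 106. The part of these shifts in the results on the FHF genes was not tested. In bulk RNA of this kind, fewer cells of a type and less RNA per cell cannot be told apart.

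Each FHF gene can start from several promoters, which give the protein different N-terminal ends. RefSeq lists 4 starts for FGF14, 3 for FGF11 and 2 each for FGF12 and FGF13, and all 11 windows were found on their chromosome in GRCh37. The 250 bases before the outermost start and before the farthest start inside the gene of FGF14 are shown, because the fragments described further on fall between them and the end of the gene. The first lies at chr13:103054794-103055043 and the second at chr13:102569296-102569545, both on the minus strand and separated by 486 kb. Letters are from the RefSeq promoter table of GRCh38.p14 and positions from an exact match to GRCh37. Capitals mark matches on either strand to the searched motifs, which were the E-box core CACGTG, the cyclic AMP response element TGACGTCA with its shorter core ACGTCA (which it contains), the CCAAT box (CCAAT), the GC box GGGCGG and the TATA box (TATAAA).
FGF14 outer start: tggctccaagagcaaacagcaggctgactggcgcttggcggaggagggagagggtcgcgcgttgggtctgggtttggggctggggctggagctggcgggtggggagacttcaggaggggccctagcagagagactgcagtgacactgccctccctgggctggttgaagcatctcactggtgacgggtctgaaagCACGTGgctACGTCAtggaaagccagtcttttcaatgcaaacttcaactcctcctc
FGF14 inner start: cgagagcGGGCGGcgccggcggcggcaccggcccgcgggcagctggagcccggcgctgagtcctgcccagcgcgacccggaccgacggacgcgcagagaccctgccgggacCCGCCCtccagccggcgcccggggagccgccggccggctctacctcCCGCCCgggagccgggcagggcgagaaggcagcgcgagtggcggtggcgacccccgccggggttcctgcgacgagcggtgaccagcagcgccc
The outer window has 60.8% G and C and holds 1 E-box core and 1 core of the cyclic AMP response element, which do not overlap. Of 35116 promoter windows of the same length, 6.34% hold the E-box core and 7.10% the other. The inner window has 81.6% G and C and holds 3 GC boxes, and 42.6% of all windows hold at least 1. Among the other paralogs, the core of the cyclic AMP response element was found before 1 start of FGF13, and the E-box core before none. These matches describe letters and not binding.

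FGF14 was the only FHF gene with appreciable RNA in SY5Y cells. DMSO libraries 1 and 2 held 690 and 678 of its fragments, against 60 and 72 with SGSS05-NS. The 4 values fall into separate ranges by treatment, with replicates close to each other. In TMM-normalized CPM, which correct for library size but not for gene length, the level was 27.5 and 29.0 with DMSO and 2.70 and 3.06 with SGSS05-NS. The means were 28.2 ± 1.07 CPM (SD, n = 2) and 2.88 ± 0.253 CPM (SD, n = 2). The log2 fold change was -3.29 with a standard error of 0.15, which is 9.78-fold lower with SGSS05-NS. Only 5 of the 16468 genes tested had a lower log2 fold change. With single libraries left out, it ranged from -3.38 to -3.21. The 1341 genes called lower, 8.14% of those tested, include FGF14, from which nothing is read, since the gene was picked from this comparison.

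FGF11, the shortest of the family, was covered by 4 and 5 fragments in both groups alike. The groups overlapped, and the ratio of the scaled counts, SGSS05-NS over DMSO, was 1.06, and counting error alone (95%, exact binomial) allows 0.373 to 3.01. FGF13, an X-linked gene, had 7 and 2 fragments with DMSO and 3 and 0 with SGSS05-NS. Its ratio was 0.353, with an interval from 0.0615 to 1.42. FGF12 had 2 and 0 fragments with DMSO and 1 and 0 with SGSS05-NS. No library reached 3 fragments, equal to between 0.119 and 0.135 CPM, the level that a count of 0 still allows, so no ratio is given. These 3 genes did not pass the filter on low counts and were not tested. A difference in them was not detectable at this depth, and the intervals cover counting error only.

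**Figure D1:**
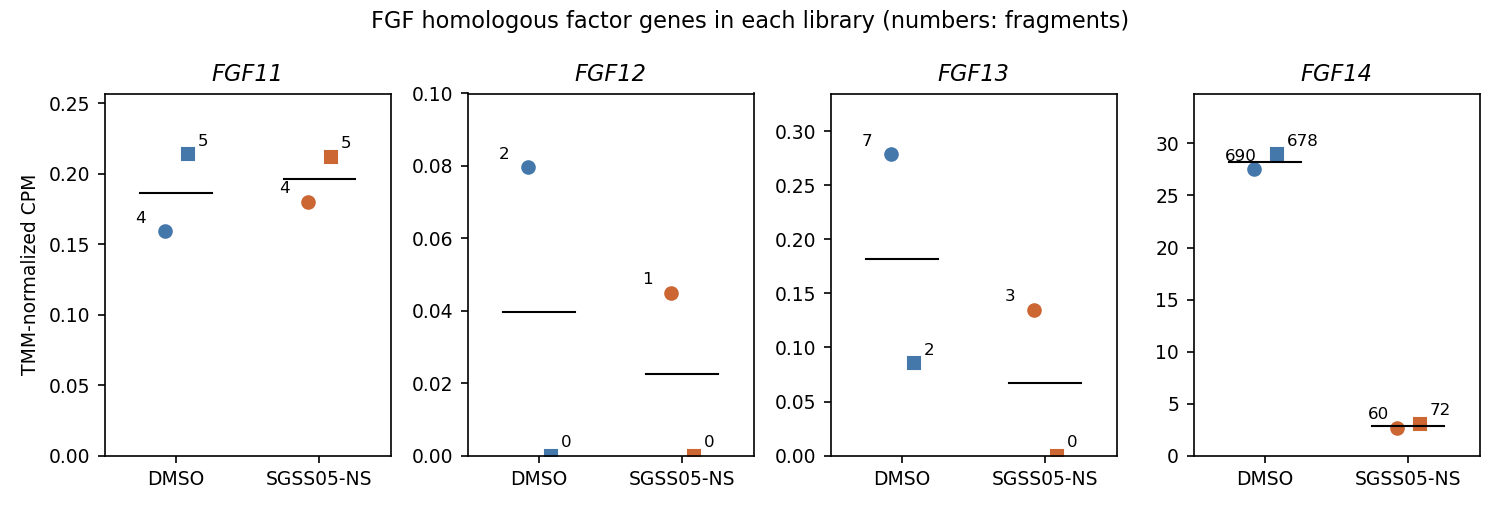
TMM-normalized CPM of each FHF gene in each of the 4 libraries, with circles for replicate 1, squares for replicate 2, a line at the mean of each group and the fragment count beside each point. The vertical axes start at 0 and differ between genes: FGF14 lay near 28 CPM with DMSO and near 3 CPM with SGSS05-NS, while the other genes stayed under 0.3 CPM in every library.

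FGF14 made up 98.2% of the fragments on the family in the first DMSO library (exact 95% interval from 96.9 to 99.0) and 99.0% in the second (97.9 to 99.6). In the SGSS05-NS libraries the share was 88.2% (78.1 to 94.8) and 93.5% (85.5 to 97.9). The other genes together held 13 and 7 fragments with DMSO and 8 and 5 with SGSS05-NS. The lower share therefore went with fewer FGF14 fragments and not with more fragments on its paralogs. To compare levels between the genes, CPM was divided by the annotated exon length. With DMSO, the level was 1.93 ± 0.0732 CPM per kb (SD, n = 2) for FGF14, 0.0367 ± 0.00759 for FGF11, 0.00879 ± 0.00659 for FGF13 and 0.00347 ± 0.00491 for FGF12. FGF11 and FGF13 did not overlap between DMSO libraries on this scale, whereas FGF13 and FGF12 did. In fragments, FGF11 (4 and 5) and FGF13 (7 and 2) overlapped. Their separation per kb came from the division by exon length, which is approximate. With SGSS05-NS, FGF14 still had the highest level per kb, at 0.197 ± 0.0173, above FGF11 at 0.0386 ± 0.00450.

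The paralogs differ far more in span than in exon content. On GRCh37, FGF14 lies on chromosome 13 from 102363154 to 103054807 on the minus strand, a span of 692 kb with 14.6 kb of exons. FGF12 covers 628 kb of chromosome 3 (191857179 to 192485553, minus strand) with 11.5 kb of exons, and FGF13 covers 608 kb of the X chromosome (137696888 to 138304939, minus strand) with 20.7 kb. FGF11 is compact, with 5.08 kb of exons in 6.67 kb of chromosome 17 (7341592 to 7348256, plus strand). Since FGF14 alone was measurable, the change could not be compared between the long paralogs and the short one.

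Several small annotated genes lie inside the span of FGF14. Fragments over them on the minus strand, from which FGF14 is transcribed, give a readout of the locus that the choice of genes did not use. ITGBL1, which overlaps the far end of FGF14, is an exception, since most of its minus-strand fragments lie on the last exon of FGF14. For features annotated on the plus strand, these fragments stand in the deposited column for the opposite strand. The strand information was clean here: FGF14 itself had 0, 2, 0 and 0 fragments in that column. Nearest the outer start, 6.75 to 7.84 kb into the gene, the position of FGF14-AS2 had 32 and 33 minus-strand fragments with DMSO and 31 and 26 with SGSS05-NS. The groups were close, with a ratio of 0.930 and an interval from 0.640 to 1.35. At the position of FGF14-AS1, 28.8 to 34.9 kb from the start, there were 31 and 29 fragments with DMSO and 21 and 17 with SGSS05-NS, a ratio of 0.671 (0.435 to 1.02). Both SGSS05-NS libraries were below both DMSO libraries at that position.

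FGF14-IT1, a transcript annotated within the introns on the same strand, reaches from 7.94 to 110 kb. It had 77 and 70 fragments with DMSO and 37 and 40 with SGSS05-NS. Its log2 fold change was -0.85 with a standard error of 0.23, and it did not pass the threshold (adjusted p = 0.011, edgeR's quasi-likelihood test over all genes), and its ratio was 0.555 (0.416 to 0.736). Of its exons, 243 bases are shared with FGF14, and fragments there are assigned to neither gene. The pseudogene RPL39P29, 139 kb from the start, had 6 and 6 fragments with DMSO and 3 and 4 with SGSS05-NS, a ratio of 0.618 with a wide interval from 0.206 to 1.70. At the pseudogene LIPT1P1, 399 to 400 kb from the start, the minus strand had 5 and 10 fragments with DMSO and 1 and 2 with SGSS05-NS, a ratio of 0.212 (0.0393 to 0.749). All of these positions lie between the outer and the inner start.

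MIR4705, RNY1P2 and MIR2681, also before the inner start, had at most 5 fragments over all libraries. Past the inner start and before the last exon the counts were as sparse. The minus strand at HMGB3P7, 600 kb from the outer start, had 2 and 3 fragments with DMSO and 0 and 0 with SGSS05-NS, and RNU1-24P at 623 kb had 1 and 1 with DMSO and 0 and 0. At the far end, exons of ITGBL1 on the plus strand overlap the last exon of FGF14 by 4356 bases. The minus strand over ITGBL1 exons had 181 and 200 fragments with DMSO and 16 and 11 with SGSS05-NS, a ratio of 0.0751 (0.0489 to 0.111). The exon count of FGF14 itself gave 0.102 (0.0849 to 0.122). The values for ITGBL1 largely repeat those of FGF14, since a fragment on both exons is counted in both columns. They also include ITGBL1 exons outside FGF14. Counted without regard to strand, FGF14 lost 138 and 138 fragments with DMSO and 12 and 8 with SGSS05-NS as ambiguous. Counted that way, ITGBL1 kept only 43 and 58 fragments with DMSO and 7 and 4 with SGSS05-NS.

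Among the features with at least 10 fragments, the ratio on the FGF14 strand was closest to 1 at FGF14-AS2. It was lowest at ITGBL1, whose minus-strand fragments are largely those of FGF14. The intervals of FGF14-AS2 and of the FGF14 exon count do not overlap, but they cover counting error only and leave out variation between cultures. FGF14 was also picked with its value known, so nothing is read from this gap. Ordering of the features in between is not resolved by these counts. The features near the start are intronic, where unspliced RNA is read, while the counts of FGF14 and ITGBL1 come from exons. Between these, position in the gene and kind of RNA differ together and cannot be told apart. LIPT1P1, 399 to 400 kb from the start, shares no exon bases with FGF14, and neither does FGF14-AS2. Their ratios were 0.212 (0.0393 to 0.749) and 0.930 (0.640 to 1.35), with intervals that overlap, and the part of position was not tested. The share of fragments that hit no annotated exon was 12.4% and 12.3% with DMSO against 16.1% and 15.3% with SGSS05-NS, and the part of this shift in the profile was not tested.

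**Figure D2:**
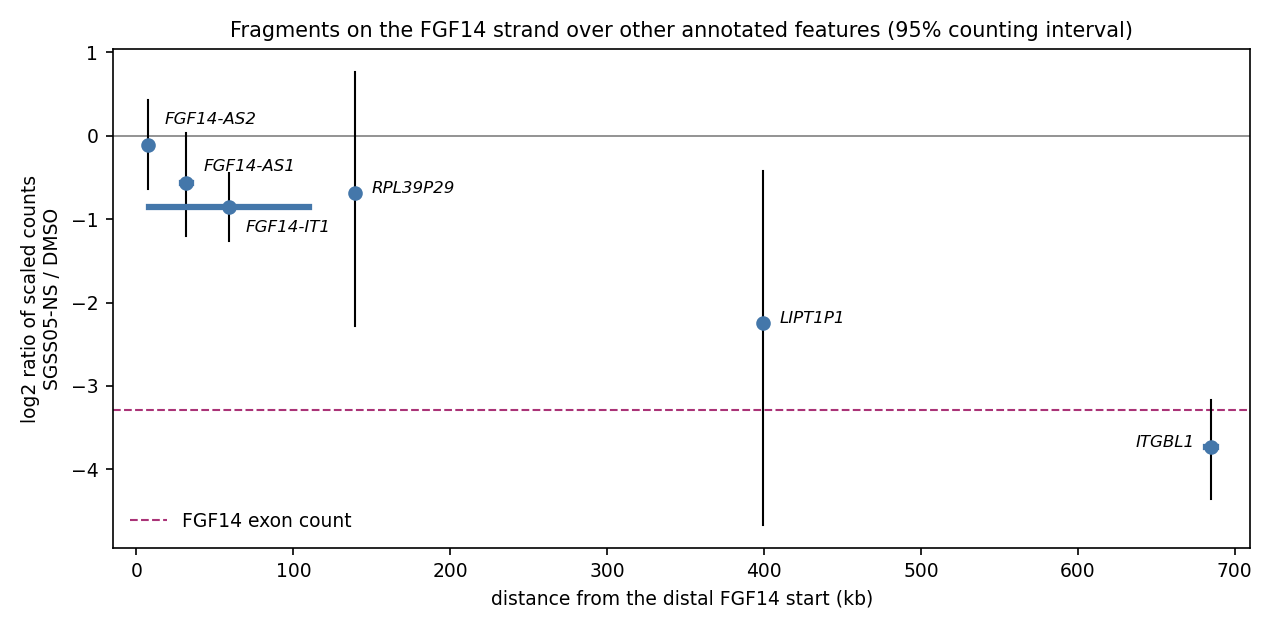
Log2 ratio of scaled minus-strand counts, SGSS05-NS over DMSO, at annotated features with at least 10 fragments inside FGF14, against the distance in kb from the outer start; thick bars give the extent of a feature, thin vertical lines the 95% counting interval, and the dashed line the exon count of FGF14 at -3.29. The points run from -0.11 at FGF14-AS2 to -3.73 at ITGBL1, whose minus-strand fragments largely repeat those of FGF14.

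The RNA from the other strand was separate. FGF14-AS2, an antisense RNA that starts inside FGF14, had 106 and 99 fragments on its own strand with DMSO and 51 and 77 with SGSS05-NS. Its change of -0.60 on the log2 scale (standard error 0.22, edgeR's adjusted p = 0.044) did not pass the threshold. Without the first SGSS05-NS library the value was -0.38 and without the second -0.88. FGF14-AS1 had 0 fragments on its own strand in every library, and so had the antisense genes annotated within FGF12 and FGF13. MIR504, a microRNA gene inside FGF13, also had 0 in every library, although a library of this kind does not capture mature microRNAs. At FGF11, the opposite strand held 6 and 7 fragments with DMSO and 6 and 17 with SGSS05-NS, more than its own strand. An antisense gene overlaps it there (ENSG00000263301, 3 and 4 fragments with DMSO, 4 and 6 with SGSS05-NS).

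The genes next to the FHF loci were compared by the same test. Beside FGF14, TPP2, a peptidase gene 195 kb away, counted 3145 and 2909 fragments with DMSO against 2826 and 3024 and had a log2 fold change of 0.03 (adjusted p = 0.78, edgeR). NALCN, a sodium leak channel gene 294 kb away, was rare, with 15 and 9 fragments against 14 and 7. Around FGF11, TMEM102 had a log2 fold change of -0.41 (adjusted p = 0.12, edgeR) and CHRNB1, an acetylcholine receptor subunit gene, 0.03 (adjusted p = 0.91, edgeR). Around FGF12, MB21D2 had -0.17 and CCDC50 -0.04, and neither passed the threshold. Beside FGF13, the pseudogene TM9SF5P had 0.01 and did not pass the threshold.

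Gene span was related to the change across the whole table. Among 12567 protein-coding genes tested, Spearman's correlation between span and log2 fold change was -0.418 across genes, which share the libraries and are not independent. The median log2 fold change was 0.15 for 2241 genes under 10 kb, 0.13 for 5423 genes of 10 to 50 kb, -0.04 for 2251 genes of 50 to 100 kb and -0.28 for 1597 genes of 100 to 200 kb. It was -0.76 for 839 genes of 200 to 500 kb and -1.19 for 216 genes of 500 kb and over, against 0.01 for all genes tested. In the longest class 58.3% of the genes were called lower and 0.926% higher. In the shortest, 55 were lower and 247 higher. Within the longest class FGF14 had the second lowest value, after B3GALT1, and the class as a whole ranged from -3.45 to 1.79.

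The genes closest in span to FGF14 were KALRN, ADGRL2 and THSD4. KALRN, a guanine nucleotide exchange factor gene of 693 kb, was called lower, from 75.8 ± 4.96 CPM to 31.4 ± 7.83 CPM (log2 fold change -1.27, standard error 0.14, adjusted p = 2.8e-05, edgeR). ADGRL2, a latrophilin gene of 688 kb, was called lower with a log2 fold change of -1.25 (adjusted p = 4.1e-06, edgeR). THSD4 was rare, with 14 and 13 fragments against 3 and 3, and its value of -2.04 did not pass the threshold (adjusted p = 0.0057, edgeR). For the spans of FGF12 and FGF13, which could not be tested themselves, ESRRG (-1.64), SPOCK1 (-1.26), FOXP1 (-0.95) and DNM3 (-1.71) were called lower, while MAPK10 (-0.59) and MYO16 (-0.16) were not called. For the span of FGF11, PNPLA2 was called higher (0.81), and FAM32A (-0.01) and C18orf21 (0.57) were not called.

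**Figure D3:**
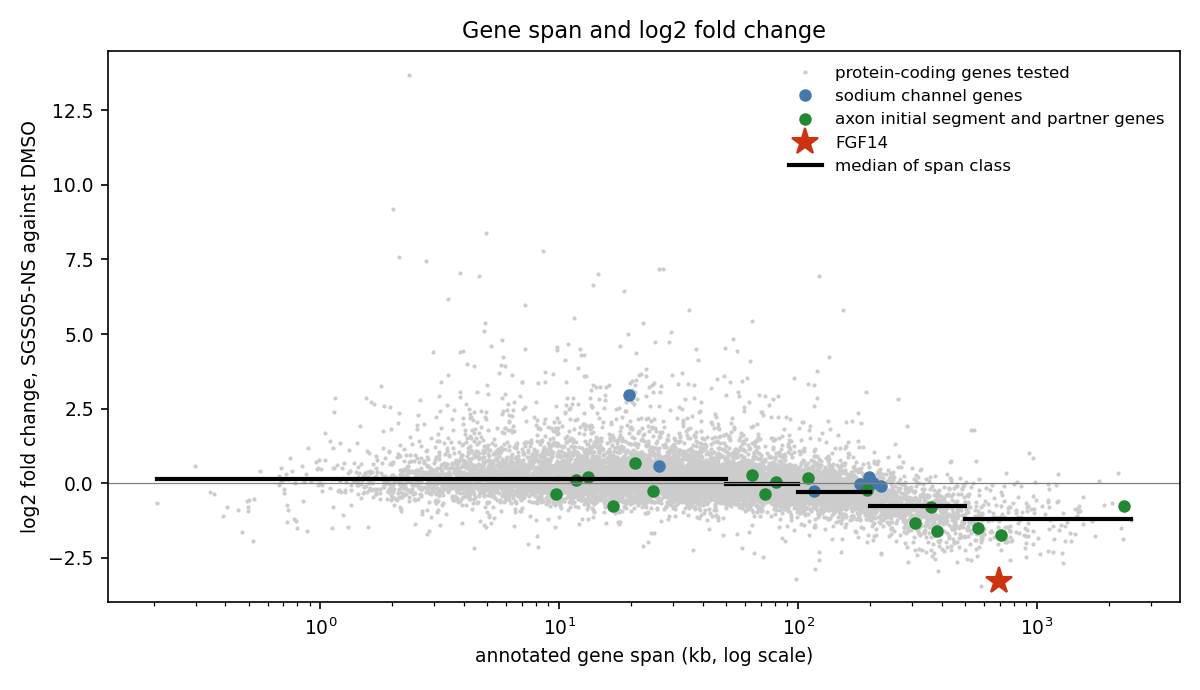
Log2 fold change, SGSS05-NS against DMSO, against annotated gene span in kb on a log axis for the protein-coding genes tested (grey), with sodium channel genes in blue, axon initial segment and partner genes in green, FGF14 as a star and the median of each span class as a black line. The medians go from 0.15 under 10 kb to -1.19 at 500 kb and over, and FGF14 lies at -3.29, near the lower edge of the longest class.

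Over the 4 libraries, the profiles most like that of FGF14, by the Euclidean distance between centred log2(CPM + 0.5) values, were B3GALT1 (distance 0.583), ENSG00000260412 (0.589) and KCNMA1 (0.759). B3GALT1, a galactosyltransferase gene of 581 kb, had 254 and 390 fragments with DMSO and 18 and 38 with SGSS05-NS, and its replicates were less alike than those of FGF14. KCNMA1, a calcium-activated potassium channel gene of 769 kb, counted 352 and 391 fragments with DMSO against 46 and 73. ENSG00000260412, at 6.88 kb, counted 185 and 215 with DMSO against 10 and 28. With 4 libraries the distance is mostly the size of the change.

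The sodium channels that FHFs bind were listed as alpha and beta subunit genes. This list and those below were drawn up with earlier results of these data known. Of 13, 9 were tested, 1 was called higher and 0 lower, where 6.37% of all genes tested were called higher and 8.14% lower, so these counts are near that background. At an unadjusted p-value under 0.05 in edgeR's test, 3 were higher and 1 was lower, and DESeq2 and limma voom also called 0 lower. The median log2 fold change was 0.01, the same as for all genes tested. Among the alpha subunits, which form the pore, SCN3A had the highest level per exon length with DMSO, at 4.62 CPM per kb, above FGF14. It had 1521 and 1086 fragments with DMSO and 1147 and 878 with SGSS05-NS. The groups overlapped, with -0.27 on the log2 scale (standard error 0.15, adjusted p = 0.17, edgeR). SCN2A (0.19), SCN8A (-0.09) and SCN9A (-0.01) did not pass the threshold either. The called gene was SCN4B, a beta subunit, which had 11 and 8 fragments with DMSO and 89 and 52 with SGSS05-NS (log2 fold change 2.97, standard error 0.39, adjusted p = 9.3e-05, edgeR). Under a filter of at least 10 counts per library SCN4B was not tested and no channel gene was called. The beta subunit gene SCN3B (0.58) did not pass the threshold, with an adjusted p-value of 0.0033 (edgeR). SCN3A, SCN2A, SCN8A and SCN9A span between 117 and 223 kb.

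Proteins that anchor the channels at the axon initial segment or have been described as binding FHFs were listed separately, and 17 of 18 were found in the files and tested. Of these, 5 were called lower and 1 higher, with a median log2 fold change of -0.37, where 8.14% of all genes were called lower and 6.37% higher. Since this list too was drawn up with earlier results of these data known, the counts are a description. The lower genes included ANK3, which encodes ankyrin-G, the organiser of the initial segment, with 343 and 332 fragments with DMSO and 80 and 113 with SGSS05-NS. On the log2 scale this was -1.72 (standard error 0.17, adjusted p = 1.2e-05, edgeR). ANK2, for ankyrin-B, was called lower at -1.51, the adhesion molecule genes NRCAM at -1.34 and CNTN1 at -1.62, and CALM2, 1 of 3 calmodulin genes, at -0.75. The spectrin genes SPTBN4 (0.16) and SPTAN1 (0.05) and the neurofascin gene NFASC (-0.24) did not pass the threshold. ANK3 spans 707 kb, ANK2 566 kb, CNTN1 380 kb, NRCAM 309 kb and CALM2 16.8 kb, against 110 kb for SPTBN4, 81.1 kb for SPTAN1 and 194 kb for NFASC. Of all protein-coding genes tested, 48.0% of those of 200 to 500 kb and 58.3% of those of 500 kb and over were called lower. The list also has genes over 200 kb that were not called, among them the longest of the list, at 2300 kb. The part of span in these calls was not tested. CALM2 had the highest level of the list with DMSO, at 1520 ± 12.2 CPM. The higher gene was MAPK8IP1 (0.67, adjusted p = 0.00012, edgeR), a scaffold of the JNK pathway, and MAPK8IP2, the scaffold best known as an FHF partner, had 0.19 and did not pass the threshold.

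The secreted branch of the FGF family and its receptors were mostly silent or not called. Of 25 genes, 10 were tested, 1 was called higher and 1 lower, near the 6.37% and 8.14% of all genes tested, with a median log2 fold change of 0.35. The lower gene was FGF7, an epithelial growth factor, with 142 and 144 fragments with DMSO and 23 and 30 with SGSS05-NS (log2 fold change -2.35, standard error 0.23, adjusted p = 1.1e-05, edgeR). It spans 65.5 kb and has pseudogene copies, so fragments shared with them were not counted. The higher gene was FGFR3, a receptor, with 14 and 11 fragments with DMSO and 88 and 98 with SGSS05-NS (2.97, standard error 0.28, adjusted p = 7.9e-06, edgeR). FGFR1 was the most abundant gene of the list in CPM, at 57.3 ± 0.0886 with DMSO and 69.3 ± 1.18 with SGSS05-NS, and did not pass the threshold (0.28, adjusted p = 0.026, edgeR). FGF2, the most abundant ligand, had 0.42 (adjusted p = 0.0071, edgeR). FGF8 had 0 and 0 fragments with DMSO and 2 and 11 with SGSS05-NS and was too rare to be tested.

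Downstream of the receptors, 13 of 14 signalling and feedback genes were tested, with 2 called higher and 2 lower and a median of -0.01, beside 6.37% called higher and 8.14% lower over all genes tested. SPRY4, an inhibitor of receptor signalling, was higher, with 423 and 364 fragments with DMSO and 829 and 715 with SGSS05-NS (log2 fold change 1.06, adjusted p = 5.1e-05, edgeR), as was SPRED3 (1.52, adjusted p = 0.00061). IL17RD, also an inhibitor of FGF signalling and the most abundant gene of this list, was lower, from 155 ± 13.9 CPM to 75.3 ± 8.28 CPM (-1.04, adjusted p = 1.7e-05, edgeR). ETV1, a transcription factor of the ETS family, was lower as well (-0.71, adjusted p = 0.00070). The related ETV4 (-0.19) and ETV5 (0.00) and the phosphatase gene DUSP6 (-0.01) did not pass the threshold.

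**Figure D4:**
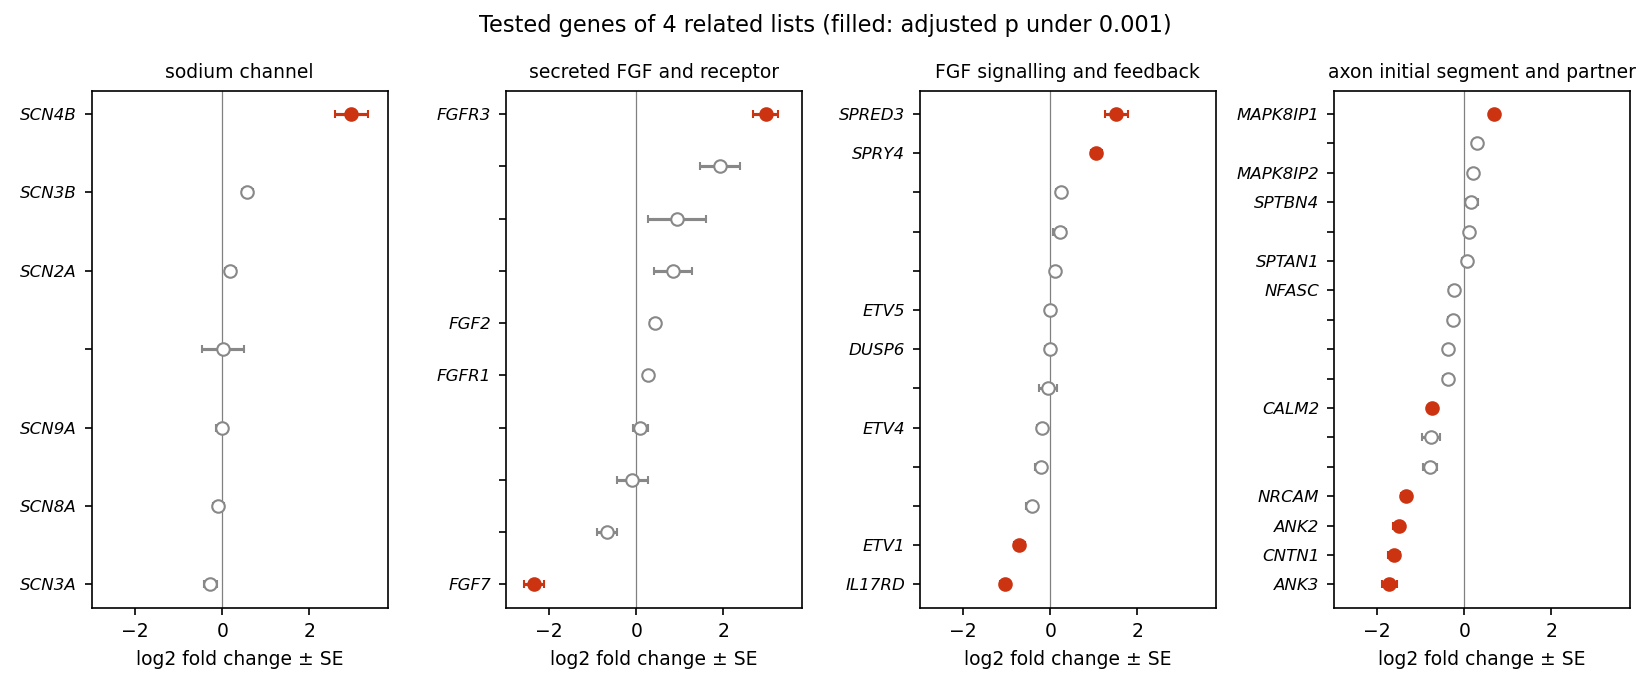
Log2 fold change, SGSS05-NS against DMSO, with its standard error for tested genes of the 4 related lists, labelled where the text names them; filled points passed an adjusted p-value of 0.001 in edgeR's quasi-likelihood test. The sodium channel list has 1 filled point, SCN4B at 2.97, while the axon initial segment and partner list has 5 filled points below 0, from -1.72 for ANK3 to -0.75 for CALM2.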

How the data were processed

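RNA from SY5Y cells treated with DMSO or SGSS05-NS was sequenced, with 2 libraries per group taken from the sample titles. Per the study's methods and processing notes, reads were trimmed by the authors (Trimmomatic 0.30) and mapped to hg19 by STAR 2.4.2a, whose raw counts were deposited as fragments per gene, without normalization or pooling. Fragments with several alignments or on overlapping genes were not assigned. The 4 summary rows per file were left out. Labels and methods differ on the library kit; the reverse-strand column was used because the opposite column held between 4.64% and 5.05% of the fragments assigned in both. The processing notes also name edgeR 3.10.5, the study's own test.

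Gene rows were matched by identifier to GENCODE 44 on GRCh37 (55538 of 57820), which is newer than the gene models counted, so spans, exon lengths and overlaps are approximate. The steps in edgeR 4.0.16 (R 4.3.3) were filterByExpr, TMM scaling, a quasi-likelihood test of SGSS05-NS against DMSO, Benjamini-Hochberg adjustment over 16468 genes and a threshold of 0.001. The standard error is the log2 fold change divided by the square root of F. Libraries of a group differed by more than counting alone gives (chi-square over its degrees of freedom 8.76 and 11.8). The methods describe the replicates as biological. Counting intervals cover counting error only and leave out variation between cultures.

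The 4 genes and all lists were chosen with earlier results of these data known. Named genes were the 4 genes, genes inside them with at least 10 counts, nearest tested neighbours, the 3 nearest in span and in profile, and, per list, the called genes with the 3 smallest p-values and the most abundant gene; others named in the lists were added after their values were seen. IKBKG and PECAM1 had no matching row and were not analysed here. Some genes of the lists and neighbours are not reported here. Alternatives were the likelihood ratio test, DESeq2 1.42.0, limma 3.58.1 voom, other scalings, filters, thresholds and strand settings, a replicate block and left-out libraries.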

Additional observations from a re-analysis of the deposited data

How the results depend on the processing

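With 2 libraries per group, the spread of each gene is estimated largely from other genes, and when a library is left out the lone one is assumed to vary like the others. The log2 fold change of FGF14 moved by less than the spread between replicates under 9 other tests, scalings, filters, strand and block settings (from -3.32 to -3.24) and with single libraries left out (-3.38 to -3.21). FGF14-IT1 (-0.94 to -0.82) and FGF14-AS2 (-0.88 to -0.38) kept their direction and did not pass 0.001 under any of them. The ratios of FGF11 and FGF13 stayed within their counting intervals, which depth keeps so wide that this says little about their stability. FGF13 gave no ratio where leaving out a library left a group without fragments. FGF12 was too rare for its ratio to be followed.

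The counts of calls depended more on the settings, and the cause was not tested. At an adjusted p-value under 0.05, 3728 genes were higher and 3902 lower, against 1049 and 1341; the sodium channel list then had 3 higher and 1 lower, the secreted FGF and receptor list 4 and 2, and the axon initial segment and partner list 2 and 9. Under 0.01 the numbers were 2321 and 2615, with 3 sodium channel and 3 secreted FGF and receptor genes higher. The likelihood ratio test gave 2023 and 2267, with 3 and 2 genes higher in those lists. Without a filter on low counts, 2034 were higher and 2570 lower among 30755 genes, with 3 sodium channel genes higher and 8 axon initial segment and partner genes lower, and the median of protein-coding genes under 10 kb was 0.22. With at least 10 counts in every library 0 sodium channel genes were higher, because SCN4B was then not tested. The signalling and feedback list had 1 gene higher with DESeq2 and 1 lower with library size only, a setting in which the median under 10 kb was 0.18.

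The replicate number was no evidence of pairing: the difference between replicates 1 and 2 correlated at 0.0658 between the groups. With the replicate block, 1759 genes were higher and 2007 lower, and 3 sodium channel genes were higher. With single libraries left out, 1 to 2 sodium channel genes were higher, the signalling and feedback list had 1 to 2 higher and 1 to 3 lower, and the medians ranged from 0.13 to 0.18 under 10 kb and from -1.37 to -1.04 at 500 kb and over (-1.37 without SGSS05-NS replicate 2). A second sodium channel gene was called without DMSO replicate 2 or without SGSS05-NS replicate 1. The signalling and feedback list had 1 higher without DMSO replicate 1 or without SGSS05-NS replicate 2, and 1 lower without SGSS05-NS replicate 2.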
